A study of Mus musculus with 10 samples.

Results

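The 10 genes described here encode keratins of simple epithelium (Krt8, Krt18, Krt19 and Krt7), proteins of the desmosome (Dsp, Jup, Pkp2, Dsg2 and Dsc2) and the epithelial actin-binding protein Pof1b. They are 10 of the 18193 genes that a probe set names alone on the array, and all of their probe sets with 1 gene symbol were taken, 23 of the 45037 tested. The genes were chosen from these same arrays because their levels differed between the 2 hairpins against a target and between the control arrays, so those differences are described below without a test. Expression was measured in CJ9 cells, mouse embryonic stem cells (ESCs) derived from the 129svj strain and grown with LIF. The negative control, Empty Vector, was a lentivirus with no hairpin, and independent hairpins made the other groups: Wapal shRNA1 or Wapal shRNA2 against Wapal, and Smc3 shRNA1 or Smc3 shRNA2 against Smc3. Each of the 5 groups had 2 arrays. All groups, the control included, went through lentiviral infection for 48 h with polybrene at 10 µg/mL and then puromycin selection at 4 µg/mL, with culture for 48 h after infection. The design asks how loss of Wapal, which unloads the cohesin ring from chromatin, and loss of Smc3, a subunit of the ring itself, alter expression in ESCs.

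Keratins are the intermediate filament proteins of epithelial cells. A type I keratin (Krt18, Krt19) pairs with a type II keratin (Krt8, Krt7) to build the filament, and Krt8 and Krt18 form the first such pair of the mouse embryo, in the trophectoderm. Desmosomes are the junctions that hold these filaments at the cell surface: the cadherins Dsg2 and Dsc2 reach across to the next cell, Jup (plakoglobin) and Pkp2 (plakophilin 2) sit on their tails, and Dsp (desmoplakin) ties the plaque to the keratins.

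Some facts of the series bear on every value below. In the authors' supplementary table the labels of Wapal shRNA1 replicate 2 and Wapal shRNA2 replicate 1 stand the other way round from those used here, and under that labelling the difference between the Wapal hairpins was between -0.23 and 0.04 in log2 for all 10 genes. The targeted genes were low where the labels used here place them. Wapl intensity was 2500 and 2648 with Empty Vector, 929 and 1005 under Wapal shRNA1, and 235 and 217 under Wapal shRNA2. The exchanged labels would instead pair 929 with 235 under Wapal shRNA1 and 1005 with 217 under Wapal shRNA2. The labels used here thus put like Wapl values together, and the exchanged ones do not. Smc3 intensity was 1536 and 1555 with Empty Vector and between 176 and 223 in the 4 Smc3 shRNA arrays. The arrays also split in 10 genes listed in earlier work on these data, hypoxia and glycolysis genes among them: 5 were over 1.5-fold higher and 1 lower in Empty Vector replicate 2 than in replicate 1, 3 were over 2-fold higher with Wapal shRNA2 than with Wapal shRNA1, and 4 with Smc3 shRNA1 than with Smc3 shRNA2. Ndrg1, a hypoxia-induced gene, read 230 against 99 in the Empty Vector arrays, 593 and 747 under Wapal shRNA2 against 162 and 193 under Wapal shRNA1, and 682 and 502 under Smc3 shRNA1 against 79.9 and 127 under Smc3 shRNA2. A fit with a term for this split is given beside the tests below. The term sets Empty Vector replicate 2, Wapal shRNA2 and Smc3 shRNA1 against the other 5 arrays. That fit has 1 mean per target, not 1 per hairpin, and within each target the split coincides with the hairpin. The estimates are those of the reported fits and only the spread changes, so a call lost there cannot tell the split from the hairpin. The part of the split in the differences between hairpins was not tested.

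Proximal promoters are shown for the members whose levels moved together between hairpins, so that shared letters can be looked for. Sequences of 150 bases that end at the RefSeq start of the gene (GRCm38.p6, 5′ to 3′ on the strand of the gene) were used for 6 of the 10 genes. Those of Krt19, Pkp2, Dsg2 and Dsc2 were not used, and that of Jup is not shown. Capitals mark GC boxes, GGGCGG on either strand.
Krt8: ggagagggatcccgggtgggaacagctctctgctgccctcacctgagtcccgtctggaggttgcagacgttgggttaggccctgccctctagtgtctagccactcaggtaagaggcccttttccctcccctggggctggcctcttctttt
Krt18: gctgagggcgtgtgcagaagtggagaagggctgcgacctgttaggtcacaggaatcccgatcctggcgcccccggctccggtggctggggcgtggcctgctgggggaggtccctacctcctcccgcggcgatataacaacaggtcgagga
Krt7: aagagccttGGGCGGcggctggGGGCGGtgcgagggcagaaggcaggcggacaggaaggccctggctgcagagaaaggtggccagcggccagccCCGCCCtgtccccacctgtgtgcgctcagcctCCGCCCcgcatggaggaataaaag
Dsp: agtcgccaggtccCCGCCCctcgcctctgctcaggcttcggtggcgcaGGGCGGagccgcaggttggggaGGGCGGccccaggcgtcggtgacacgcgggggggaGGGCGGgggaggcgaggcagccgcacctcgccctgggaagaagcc
Pof1b: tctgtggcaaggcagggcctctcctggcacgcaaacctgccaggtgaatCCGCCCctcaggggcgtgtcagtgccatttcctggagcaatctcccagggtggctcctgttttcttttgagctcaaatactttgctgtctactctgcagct
These windows lie at chr15:102004343-102004492 on the minus strand (Krt8), chr15:102028066-102028215 on the plus strand (Krt18), chr15:101412253-101412402 on the plus strand (Krt7), chr13:38151144-38151293 on the plus strand (Dsp) and chrX:112698652-112698801 on the minus strand (Pof1b). Krt8 and Krt18 start on opposite strands of chromosome 15 and are transcribed away from each other. GC boxes numbered 4 in Krt7, 4 in Dsp and 1 in Pof1b, and these letters were in neither the Krt8 nor the Krt18 window, beside 28.6% of 32851 promoter windows of this length that hold one. Both strands of the 5 windows were also searched for the TATA box TATAAA (in 7.57% of all windows), the CCAAT box CCAAT (24.5%), the AP-1 site TGANTCA (4.24%) and the hypoxia response core ACGTG (11.2%), and none of these was found. The GC content was 61.3% for Krt8, 66.7% for Krt18, 70.0% for Krt7, 77.3% for Dsp and 56.7% for Pof1b, against a median of 54.0% over all windows.

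The 4 keratins were high with Wapal shRNA2 and Smc3 shRNA1 and near or under the control with the other hairpin against each target. Values are the deposited RMA intensities of the brightest probe set of each gene, and they are compared only within a probe set. In these bulk samples more cells with keratin and more keratin RNA per cell cannot be told apart. Krt8 read 137 and 143 with Empty Vector, 137 and 126 under Wapal shRNA1, 299.7 and 268 under Wapal shRNA2, 244 and 205 under Smc3 shRNA1, and 115 and 116 under Smc3 shRNA2. The 4 arrays of Wapal shRNA2 and Smc3 shRNA1 lay above all 6 others. Its partner Krt18 read 153 and 135 with Empty Vector, 121 and 114 under Wapal shRNA1, 225 and 243 under Wapal shRNA2, 367 and 264 under Smc3 shRNA1, and 114 and 121 under Smc3 shRNA2. The same 4 arrays again lay above the rest, with the order of the 2 high hairpins turned round.

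Krt19, a type I keratin of simple epithelia, had the widest range of the 10 genes. It read 38.0 and 51.6 with Empty Vector, 44.5 and 43.0 under Wapal shRNA1, 105 and 109 under Wapal shRNA2, 312 and 237 under Smc3 shRNA1, and 30.0 and 38.5 under Smc3 shRNA2. Its log2 level stayed under 6, the level below which a probe set is called dim here, in 6 of the 10 arrays. Krt7, a type II keratin of ducts and trophoblast, read 52.1 and 43.3 with Empty Vector, 42.6 and 42.2 under Wapal shRNA1, 87.3 and 64.2 under Wapal shRNA2, 106 and 128 under Smc3 shRNA1, and 33.6 and 47.0 under Smc3 shRNA2. Its replicates lay further apart in log2 under Wapal shRNA2 and Smc3 shRNA2 than with Wapal shRNA1, and the 4 high arrays still lay above the other 6.

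**Figure D1:**
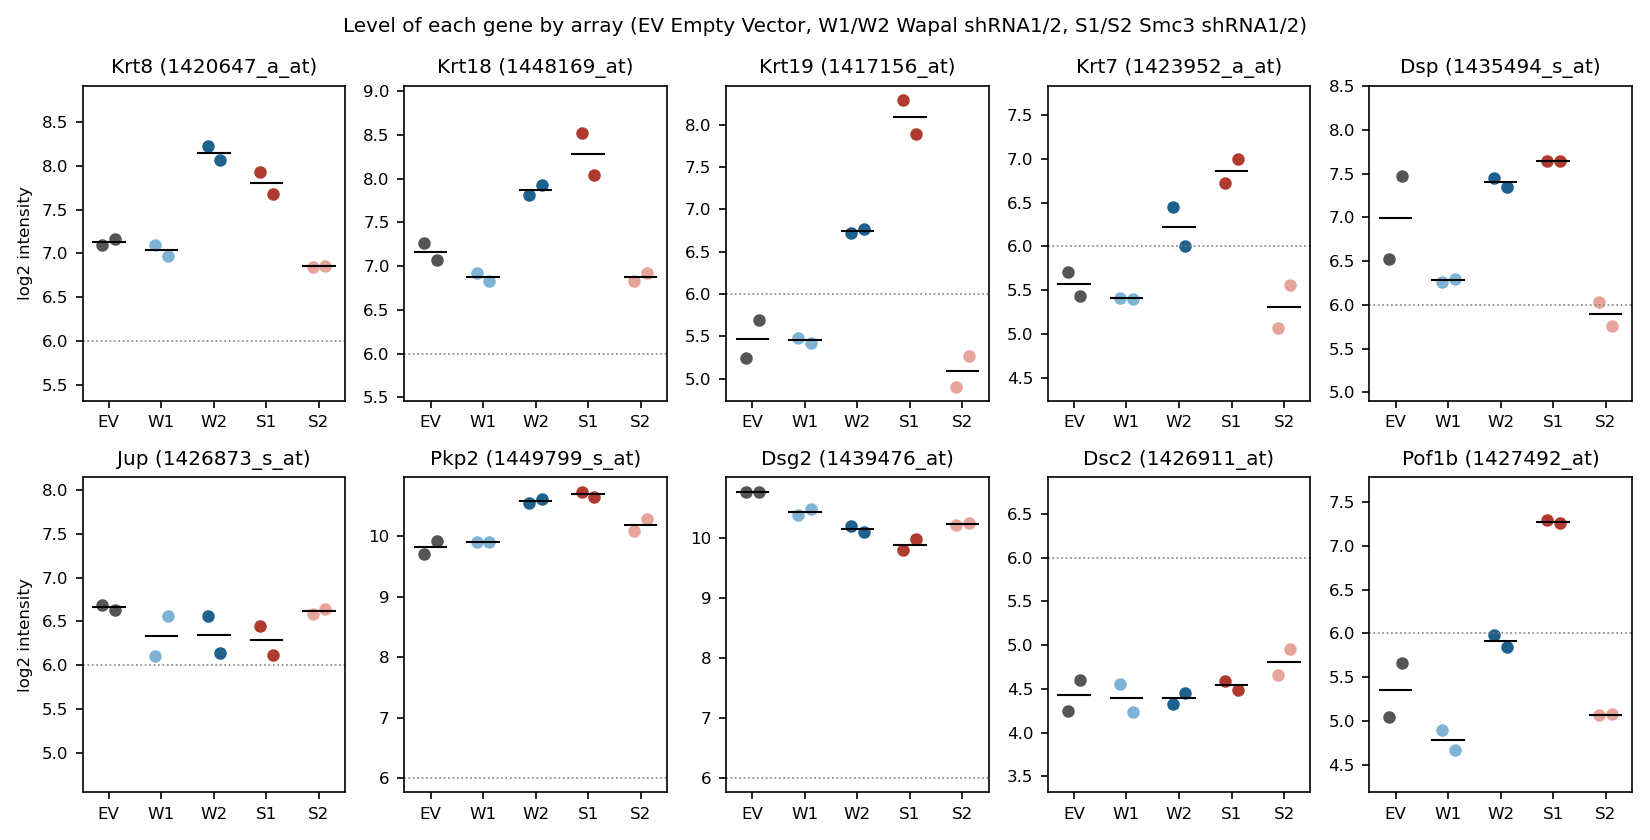
Log2 intensity of the brightest probe set of each of the 10 genes (y axis) by group (x axis), 1 point for each array and a bar at the mean of the 2 arrays, with a dotted line at log2 6 and axes of unequal range. Krt8, Krt18, Krt19, Krt7 and Pof1b are highest with Wapal shRNA2 (W2) and Smc3 shRNA1 (S1), Dsp also with Empty Vector replicate 2, and Dsg2 is lower in all 8 depleted arrays than in Empty Vector.

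Dsp, which anchors keratin filaments in the desmosome plaque, had the same split and also differed between the control arrays. It read 91.9 and 177 with Empty Vector, 77.0 and 78.7 under Wapal shRNA1, 175 and 163 under Wapal shRNA2, 199.9 and 200.05 under Smc3 shRNA1, and 65.6 and 54.2 under Smc3 shRNA2. Wapal shRNA1 and Smc3 shRNA2 were under both control arrays, whereas Wapal shRNA2 lay just under Empty Vector replicate 2. Another Dsp probe set, 1435493_at, read 33.7 and 73.4 with Empty Vector and gave the same order of groups, and 1427610_at was dim in all arrays (10.9 to 13.9) and did not. Pof1b, which binds actin at epithelial junctions, read 33.0 and 50.5 with Empty Vector, 29.7 and 25.3 under Wapal shRNA1, 63.3 and 57.6 under Wapal shRNA2, 158 and 153 under Smc3 shRNA1, and 33.4 and 33.8 under Smc3 shRNA2. It exceeded log2 6 only in the 2 arrays of Smc3 shRNA1.

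Of the other desmosome genes, Pkp2 was highest in the same arrays as the keratins, Dsg2 was lowest there, and Jup and Dsc2 showed neither order. Pkp2, a plaque protein, read 837 and 972 with Empty Vector, 954 and 961 under Wapal shRNA1, 1493 and 1572 under Wapal shRNA2, 1704 and 1612 under Smc3 shRNA1, and 1084 and 1255 under Smc3 shRNA2. Apart from Wapal shRNA1, which lay between the control arrays, all depleted arrays exceeded both controls. Dsg2, the desmosomal cadherin of simple epithelia and ESCs, moved the opposite way: it read 1736 and 1734 with Empty Vector, 1333 and 1424 under Wapal shRNA1, 1176 and 1098 under Wapal shRNA2, 889.9 and 1002 under Smc3 shRNA1, and 1189 and 1207 under Smc3 shRNA2. All 8 depleted arrays fell below both control arrays, and the hairpins with the high keratins gave the lowest Dsg2 for each target. The other bright Dsg2 probe sets, 1449740_s_at and 1425619_s_at, gave the same separation, and the remaining 3 were dim in all arrays.

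Jup, shared by desmosomes and adherens junctions, read between 68.7 and 103 with overlapping groups: 103 and 98.9 with Empty Vector, 68.7 and 94.7 under Wapal shRNA1, 94.1 and 70.5 under Wapal shRNA2, 87.3 and 69.5 under Smc3 shRNA1, and 96.3 and 100.1 under Smc3 shRNA2. Dsc2, the cadherin partner of Dsg2, was dim on both of its probe sets, from 18.8 to 31.0 on 1426911_at and from 15.3 to 20.7 on 1421156_a_at, so its level in these cells could not be ordered.

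**Figure D2:**
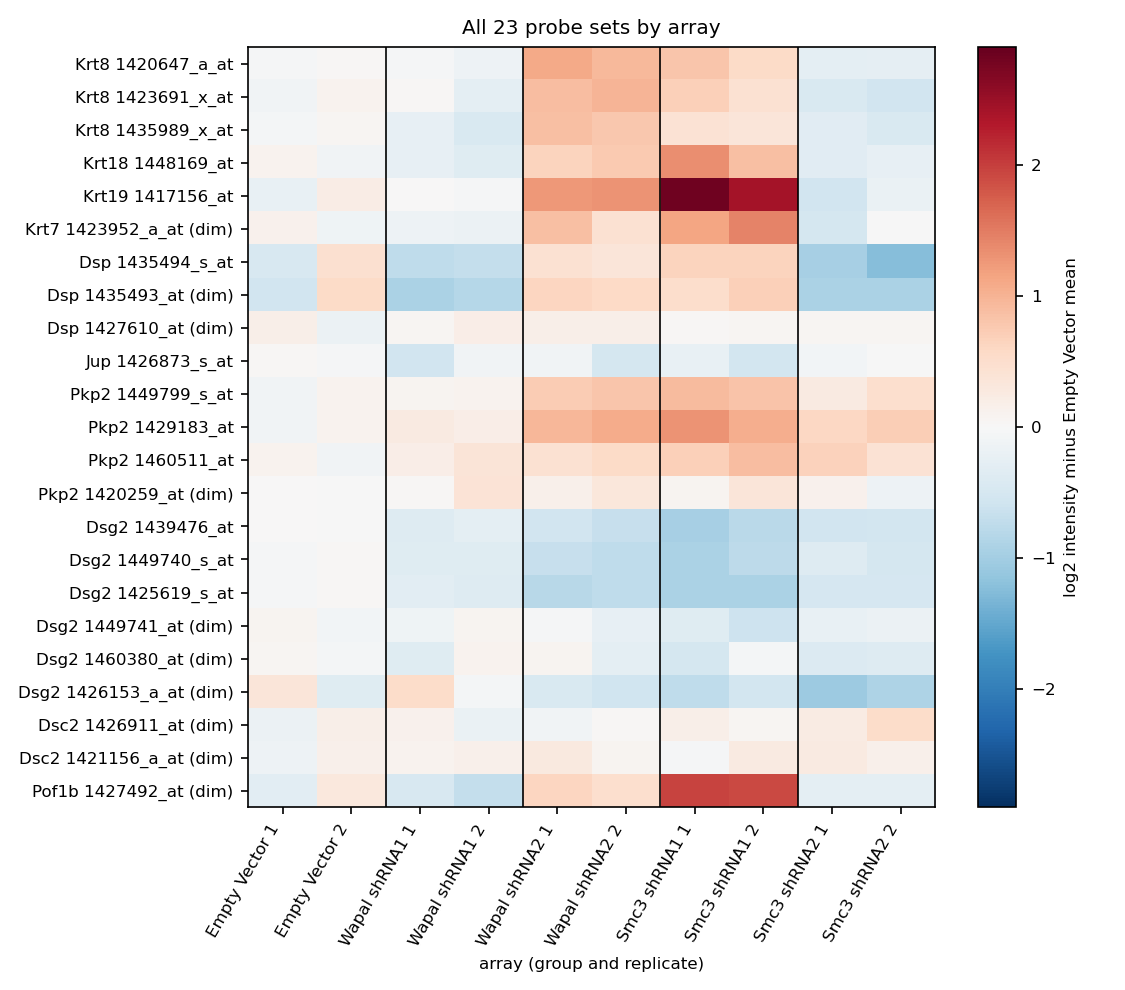
Log2 intensity of all 23 probe sets (rows, named by gene, dim where the mean over arrays is under log2 6) in each of the 10 arrays (columns), minus the mean of the Empty Vector arrays. Krt8, Krt18, Krt19, Krt7, Pof1b and the upper 2 Dsp rows are red with Wapal shRNA2 and Smc3 shRNA1, and the 3 brighter Dsg2 rows are blue in all 8 depleted arrays.

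Between the hairpins against Wapal, shRNA2 exceeded shRNA1 by more than 2-fold in 4 of the 10 genes: 2.16-fold for Krt8, 2.45-fold for Krt19, 2.17-fold for Dsp and 2.20-fold for Pof1b. Over all probe sets tested, 0.246% were as far apart in that direction and 0.0777% in the other, in which no member was. Krt18 stood just under that line at 1.99-fold, Krt7 at 1.77-fold and Pkp2 at 1.60-fold, while Dsg2 differed by -0.28 and Jup by 0.01 in log2. Between the hairpins against Smc3, shRNA1 exceeded shRNA2 by more than 2-fold in 5 of the 10 genes: 8.01-fold for Krt19, 4.62-fold for Pof1b, 3.35-fold for Dsp, 2.93-fold for Krt7 and 2.65-fold for Krt18. Here 0.973% of all probe sets were as far apart in that direction and 0.384% in the other, again with no member. Krt8 stood just under at 1.93-fold. The median log2 difference of the 10 genes was 0.91 between the Wapal hairpins and 1.18 between the Smc3 hairpins, beside 0.01 and -0.02 over all probe sets. These differences chose the genes, and nothing is read from their size. Wapl itself was lower under its shRNA2 than under its shRNA1, whereas Smc3 read 187 and 176 under its shRNA1 beside 223 and 189 under its shRNA2, and the part of the knockdown depth in the difference was not tested.

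Between the Empty Vector arrays, replicate 2 exceeded replicate 1 by more than 1.5-fold for Dsp (1.93-fold) and Pof1b (1.53-fold), 2 of the 10 genes, where 0.935% of all probe sets did so and 2.31% were as far apart the other way. Krt19 followed at 1.36-fold, whereas Krt8 (1.05-fold) and Krt18 (0.877-fold) were close to equal. The standard deviation of the log2 difference between replicates over all probe sets was 0.25 in the control group and lay between 0.190 and 0.203 in the depleted groups. Because the control arrays differ in this way, each hairpin was set against each of them separately. Against Empty Vector replicate 2, the control array with the higher Ndrg1, Wapal shRNA2 was higher by 0.98 for Krt8, 0.80 for Krt18, 1.05 for Krt19 and 0.79 for Krt7 in log2. For Smc3 shRNA1 the same differences were 0.64, 1.21, 2.40 and 1.43. The 4 keratins stood above both control arrays under these hairpins. Dsp did not with Wapal shRNA2: the differences from Empty Vector replicate 2 were -0.07 under Wapal shRNA2 and 0.17 under Smc3 shRNA1, while those from replicate 1 were 0.88 and 1.12. Against Empty Vector replicate 1, Wapal shRNA1 stood at -0.06 for Krt8, -0.39 for Krt18 and 0.20 for Krt19, and Smc3 shRNA2 at -0.24, -0.39 and -0.16. Pof1b with Smc3 shRNA1 was 1.62 above replicate 2. Dsg2 was lower by a like amount against both arrays, -0.61 under Wapal shRNA2 and -0.88 under Smc3 shRNA1 against replicate 2.

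**Figure D3:**
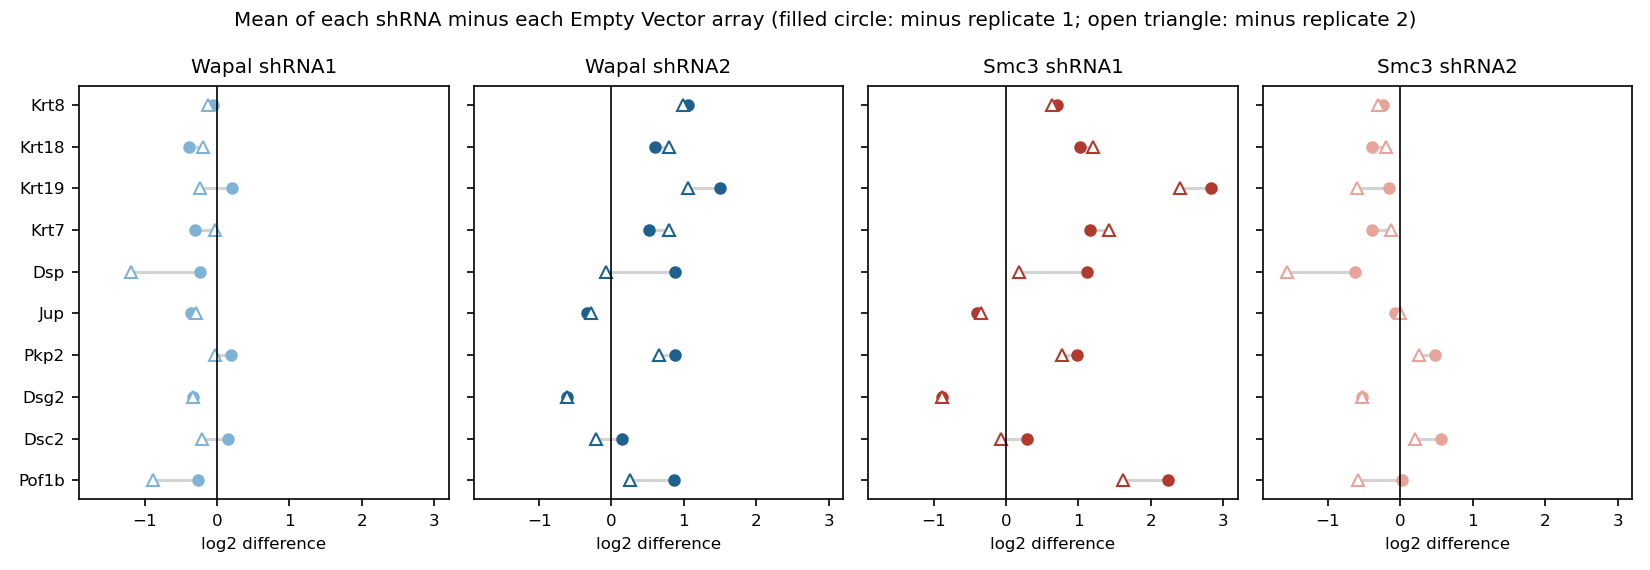
Log2 difference (x axis) between the mean of each shRNA and Empty Vector replicate 1 (filled circles) or replicate 2 (open triangles) for the 10 genes (y axis). The keratins lie to the right of 0 under Wapal shRNA2 and Smc3 shRNA1 against both control arrays, and Dsp spans 0 or nearly so, from -0.07 to 0.88 under Wapal shRNA2 and from 0.17 to 1.12 under Smc3 shRNA1.

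Averaged over both hairpins, Wapal depletion raised Krt8, Krt19 and Pkp2 and lowered Dsg2. Of the 10 genes 3 were higher and 1 lower at an adjusted p under 0.05 in limma (two-sided, Benjamini-Hochberg over all probe sets, 6 arrays), where 2.08% of all probe sets were higher and 3.83% lower. Krt8 rose by 0.46 ± 0.0983 (log2 ± SE, adjusted p = 0.0364), Krt19 by 0.63 ± 0.128 (adjusted p = 0.0323) and Pkp2 by 0.43 ± 0.0995 (adjusted p = 0.0463). Dsg2 fell by 0.47 ± 0.0918 on the log2 scale (adjusted p = 0.0281). The keratin averages join a hairpin that was high to one that was not, since Wapal shRNA1 minus the Empty Vector mean was -0.09 for Krt8 and -0.02 for Krt19. Of the 4 called genes, Dsg2 alone had all arrays of both hairpins on the same side of both controls. On the other probe sets, Pkp2 rose by 0.62 on 1429183_at (adjusted p = 0.0173) and Dsg2 fell by 0.52 and 0.56 on its other bright ones (adjusted p = 0.0193 and 0.0162), while the 2 further Krt8 probe sets did not pass (0.40 and 0.25). The 6 genes not called had 95% intervals of -0.03 to 0.43 for Krt18, -0.07 to 0.57 for Krt7, -0.66 to 0.35 for Dsp, -0.68 to 0.05 for Jup, -0.34 to 0.28 for Dsc2 and -0.38 to 0.38 for Pof1b. When any 1 of the 6 arrays was left out the calls for Krt8 and Dsg2 were lost, and those for Krt19 and Pkp2 were kept only without Empty Vector replicate 2, while calls over all probe sets dropped from 2661 to between 496 and 2281. Exchanged Wapal labels ended all 4 calls, where calls over all probe sets dropped from 2661 to 51. The estimates stayed the same, since the contrast averages both hairpins. With a term for the split of the arrays, at the same estimates, Krt8, Krt19 and Pkp2 were lost. Calls over all probe sets rose from 2661 to 3343 in that fit. With the replicate number as a block Pkp2 was lost, where calls over all probe sets dropped from 2661 to 1920.

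Smc3 depletion raised Krt19, Pkp2 and Pof1b and lowered Dsg2, again 3 of 10 higher and 1 lower, where 4.22% of all probe sets were higher and 3.41% lower. Krt19 rose by 1.12 ± 0.17 (adjusted p = 0.00693), Pkp2 by 0.62 ± 0.108 (adjusted p = 0.0115) and Pof1b by 0.82 ± 0.155 (adjusted p = 0.0165) in the limma fit to 6 arrays. Dsg2 fell by 0.71 ± 0.0928 on the log2 scale (adjusted p = 0.00374). For Pkp2 and Dsg2 both hairpins stood on the same side of both controls, for Krt19 and Pof1b they did not: Smc3 shRNA2 minus the Empty Vector mean was -0.38 and -0.28. Pkp2 also rose on 1429183_at (0.92) and 1460511_at (0.67), and Dsg2 also fell on 1449740_s_at, 1425619_s_at and the dim 1426153_a_at. The 6 genes not called had intervals of -0.03 to 0.43 for Krt8, 0.09 to 0.73 for Krt18, 0.16 to 0.87 for Krt7, -0.74 to 0.29 for Dsp, -0.46 to 0.05 for Jup and -0.06 to 0.55 for Dsc2. Intervals are not adjusted for the number of probe sets, and those of Krt18 and Krt7 leave out 0 (limma, unadjusted p = 0.017 and 0.00999). At an unadjusted p under 0.05 in limma, 6 of the 10 genes passed. Krt19 and Dsg2 remained called without any 1 array, Pkp2 was lost without Empty Vector replicate 1, and Pof1b was lost without any 1 of the 4 Smc3 arrays. Dsp was -0.70 without Empty Vector replicate 1 (adjusted p = 0.0285) and 0.25 without replicate 2. The term for the split of the arrays ended the calls for Krt19 and Pof1b and kept those for Pkp2 and Dsg2. Calls over all probe sets dropped from 3434 to 2708 in that fit. Both depletions share the Empty Vector arrays.

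**Figure D4:**
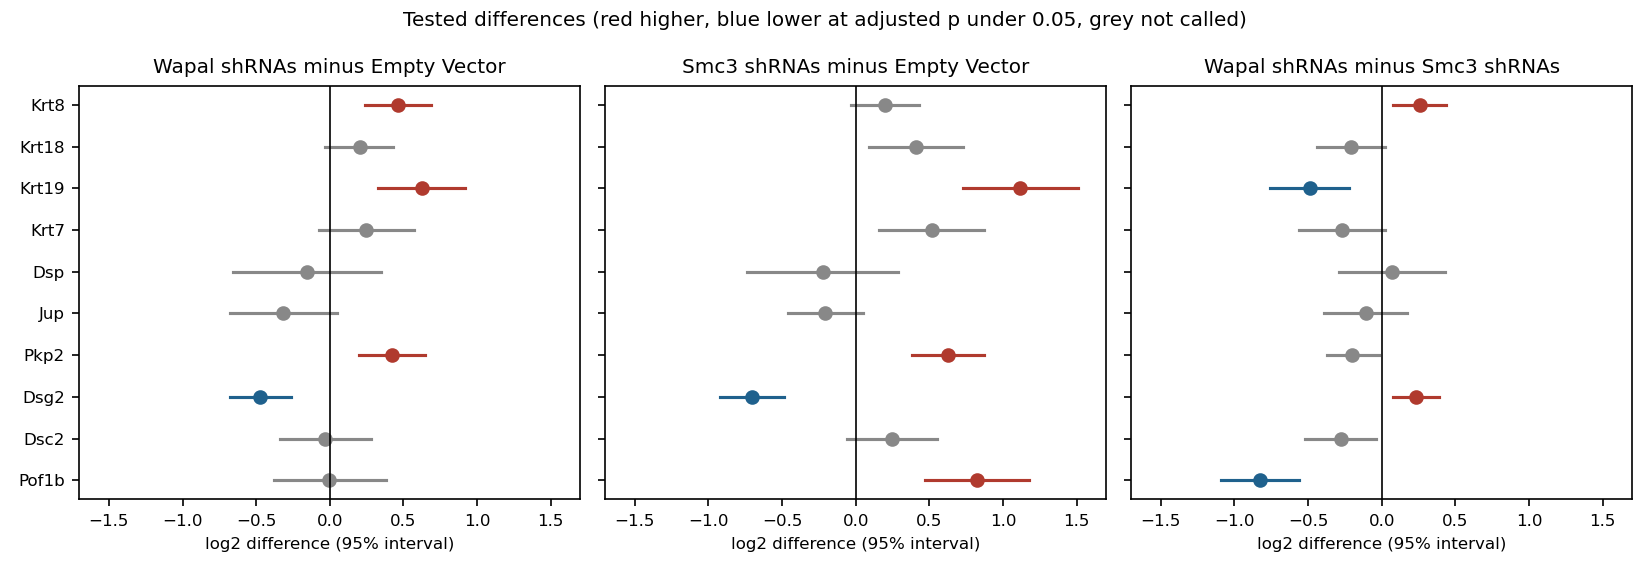
Log2 difference with its 95% interval (x axis) for the 10 genes (y axis) in the 3 tested comparisons, from limma fits across all probe sets. Red marks genes called higher, blue genes called lower and grey genes not called at an adjusted p under 0.05. Dsg2 is lower and Krt19 and Pkp2 are higher in both depletions against Empty Vector.

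The depletions were also compared with each other, a contrast in which the control arrays enter only the estimate of the spread. Krt8 and Dsg2 were higher with the Wapal hairpins than with the Smc3 hairpins, by 0.26 ± 0.0809 (adjusted p = 0.0471) and 0.23 ± 0.0713 (adjusted p = 0.0455), and Krt19 and Pof1b were lower, by -0.49 ± 0.124 (adjusted p = 0.0207) and -0.83 ± 0.12 (adjusted p = 0.00115), in limma on 10 arrays. That is 2 of the 10 genes higher and 2 lower, where 6.71% of all probe sets were higher and 10.7% lower. With the term for the split of the arrays the limma calls for Krt8 (adjusted p = 0.282), Krt19 (adjusted p = 0.392) and Dsg2 (adjusted p = 0.0949) were lost. Pof1b was kept (limma, adjusted p = 0.0311), where calls over all probe sets dropped from 7820 to 5472. With exchanged Wapal labels all 4 were lost in limma (Pof1b at an adjusted p of 0.0906), where calls over all probe sets dropped from 7820 to 4553. Pof1b was called whichever array was left out. Leaving out either Empty Vector array gave the same fit as the depleted arrays alone, since a single control array adds no spread. Krt8 and Dsg2 were lost in 7 of the 10 fits that leave out an array and Krt19 in 5, and the replicate block ended the call for Dsg2. Pkp2 differed by -0.20 (interval -0.37 to -0.02, adjusted p = 0.115), although another probe set, 1429183_at, was called lower at -0.30. The other bright Dsg2 probe sets were not called in limma, at 0.12 on 1449740_s_at (adjusted p = 0.272) and 0.15 on 1425619_s_at (adjusted p = 0.152). The dim Dsg2 probe set 1426153_a_at was called higher at 0.67, and the further Krt8 probe sets were called higher at 0.37 and 0.25.

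The rest of the keratin family gave few calls. Of the 44 other keratin genes measured, 5 had a mean level of log2 6 or more, and 0 were over 2-fold apart between hairpins of either target. In limma 0 of the 44 were called in either depletion. At an unadjusted p under 0.05, 6 were higher and 0 lower with Wapal depletion, and 2 were higher and 3 lower with Smc3 depletion. Krt4 and Krt6a, both dim on average, were higher with Wapal than with Smc3 depletion by 0.36 and 0.39. Of 8 other desmosome genes, Perp, a membrane protein of desmosomes, fell by 0.45 with Wapal depletion (adjusted p = 0.0429) and rose by 0.40 with Smc3 depletion (adjusted p = 0.0361), a difference of -0.85 between them (adjusted p = 9.4e-05). It read 383 and 389 with Empty Vector, 301 and 271 under Wapal shRNA1, 299 and 260 under Wapal shRNA2, 639 and 715 under Smc3 shRNA1, and 386 and 382 under Smc3 shRNA2, so its rise was carried by Smc3 shRNA1. Among 9 plakins and keratin partners, Plec (plectin, which links filaments to hemidesmosomes) fell by 0.61 with Wapal depletion and 0 were called with Smc3 depletion (2 at an unadjusted p under 0.05 in limma).

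Of 18 tight junction genes measured, 6 were higher and 0 lower with Smc3 depletion, beside 4.22% of all probe sets higher, and 12 were not called, with a median of 0.28 over the 18 against 0 over all probe sets, and 0 of 18 were called with Wapal depletion, where 4 were higher and 1 lower at an unadjusted p under 0.05 in limma. The claudins Cldn6 and Cldn7 rose by 1.14 and 0.82, the tricellulin family members Marveld2 and Marveld3 by 0.97 and 0.77, the polarity protein Patj by 0.79 and the adhesion molecule Epcam by 1.12. Marveld2, Marveld3 and Patj were dim on average. These averages also join unlike hairpins: Cldn7 stood at 2.08 with Smc3 shRNA1 and -0.44 with Smc3 shRNA2 against the Empty Vector mean, and Marveld3 at 1.38 and 0.16. Epcam (1.35 and 0.89) and Cldn6 (1.54 and 0.74) stood above it with both. Over 2-fold apart between the Smc3 hairpins were 4 of the 18, among them Cldn4, which was not called and stood at 0.83 and -0.85. Between the depletions 7 were lower and 1 higher with Wapal. Of 12 adherens junction genes, Nectin3 rose with Wapal (0.50) and Smc3 depletion (0.48), and no other was called in either. Of 6 hemidesmosome genes, the integrin Itga6 fell by 0.58 and the laminin chain gene Lamb3 rose by 0.55 with Smc3 depletion, and 0 were called with Wapal depletion (3 at an unadjusted p under 0.05 in limma). Among 17 epithelial transcription and splicing factors, the splicing factor Esrp1 rose in both depletions (1.10 and 1.56), Grhl2, a regulator of epithelial junction genes, rose by 0.90 with Smc3 depletion, and Klf4, also a pluripotency factor, fell by 0.76 and 0.79; 1 was higher and 1 lower with Wapal depletion, and 3 were higher, Klf6 (0.46) among them, and 2, Klf4 and Tfap2c, lower with Smc3 depletion. Of 13 other intermediate filament genes, Vim, the mesenchymal filament protein, fell by 0.47 and Ina rose by 0.44 with Wapal depletion, and with Smc3 depletion Ina (0.81), Nefl (0.53) and Synm (0.83) rose and Nefh fell by 0.64.

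Markers of cells that express these keratins were looked at beside them. Of 14 trophectoderm markers measured, 5 had a mean of log2 6 or more: Eomes, Tfap2c, Fgfr2, Plet1 and Ascl2. The summed intensity of the 14 lay between 729 and 1049 in all arrays, and it joins genes that moved apart. Tfap2c read 186 and 332 with Empty Vector and 51.6 and 48.5 under Smc3 shRNA2. Plet1 read 98.6 and 143 with Empty Vector, 246.5 and 258 under Smc3 shRNA1, and 129 and 107 under Smc3 shRNA2. Of the 14, Plet1 alone was over 2-fold apart between the Smc3 hairpins, and 0 were between the Wapal hairpins. Cdx2 (25.9 to 37.7), Elf5, Gata3 and Tpbpa were among the dim ones. Plet1 rose by 0.88 with Wapal depletion, and with Smc3 depletion Fgfr2 rose by 0.55 and Tfap2c fell by 1.90. Of 9 keratinocyte markers 2 reached that level, their sum lay between 404 and 465, Trp63, Krt14 and Krt1 were dim, and Lor rose by 0.56 with Smc3 depletion. The sum of 15 primitive endoderm markers was between 3156 and 3475 in the 4 Smc3 arrays and between 2439 and 2764 in the other 6. Sparc alone made up most of each sum, with 2332 to 2648 in the Smc3 arrays and 1806 to 2081 in the other 6. The sums therefore say little about the other markers of the list. With Smc3 depletion Pdgfra (0.51), Cubn (0.85) and Sparc (0.39) rose and 0 fell, and with Wapal depletion Col4a1 fell by 0.62 and Lama1 by 1.09 and 0 rose, while the defining factors Gata4, Gata6 and Sox7 were dim. The sum of 10 fibroblast markers ran from 266 to 391 with Col1a1 and Col3a1 dim. Dcn rose in both depletions (0.47 and 0.53), Thy1 fell in both (by 0.65 and 0.92), and Pdgfrb fell by 0.68 with Wapal depletion and rose by 0.57 with Smc3 depletion. All 11 ESC markers had a mean of log2 6 or more, Pou5f1 read from 7572 to 9612, and 2 were higher (Dppa3 by 0.59, Fgf4 by 0.50) and 3 lower with Wapal depletion, 1 higher (Dppa3 by 0.48) and 5 lower with Smc3 depletion. Esrrb, Klf2 and Tfcp2l1 fell in both, by 0.66, 0.48 and 0.62 with Wapal and by 0.77, 0.51 and 0.95 with Smc3 depletion, and Nanog (by 0.71) and Zfp42 (by 0.44) with Smc3 depletion. Their part in the keratin levels was not tested.

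Pearson's r over the 10 arrays, given as a description since the points share groups and the genes were chosen for these differences, was 0.96 for Krt18 with Krt19, 0.96 for Krt19 with Pof1b, 0.94 for Krt19 with Krt7 and 0.88 for Krt8 with Krt18. It was 0.83 for Dsp with Krt19, 0.85 for Pkp2 with Krt19 and -0.90 for Pkp2 with Dsg2. Jup and Dsc2 correlated with Krt19 at -0.48 and -0.09. Across the 1388 genes with a mean above log2 6 and a range over 1 log2 unit, those most like Krt19 over the 10 arrays were Cldn7 (r = 0.992), a claudin; Psme1 (0.986), a proteasome activator subunit; Vwa5a (0.985), Plac8 (0.984) and Emp3 (0.979). Cldn7 read 62.4 and 78.5 with Empty Vector, 120.8 and 128.8 under Wapal shRNA2 and 296 and 294 under Smc3 shRNA1. Those most like Krt18 were the kinase gene Stk26 (0.963), the long noncoding RNA Neat1 (0.959), Krt19 (0.955), Acss2 (0.953) and Vwa5a (0.95). Those most like Krt8 were Aurkc (0.966), 2410006H16Rik (0.965), Rimklb (0.957), the NF-kB inhibitor Nfkbia (0.949) and the heat shock gene Hspa1a (0.942), which read 51.0 and 93.0 with Empty Vector, 312 and 271 under Wapal shRNA2 and 214 and 195 under Smc3 shRNA1. Those most like Dsp were Lnx1 (0.958), Bdh1 (0.956), Papss1 (0.955), Spsb1 (0.953) and Amhr2 (0.952).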

How the data were processed

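Mouse Genome 430 2.0 arrays carried total RNA of each sample. The authors made the deposited intensity values from the scans with RMA (background correction, quantile normalization, summary per probe set; version not given in the sources used here); values are on a linear scale, and log2 was taken here. Of 45101 probe sets, 64 controls were left out. Gene names came from the platform annotation (34945 probe sets with 1 symbol, 932 with several, 9160 with none); a gene is represented by its probe set of highest mean log2. Probe sets ending in x_at or s_at may bind several transcripts. Groups came from the sample labels, which call the replicates biological without naming separate cultures, so p-values measure only the spread between arrays of 1 hairpin. The 2 arrays per group limit the precision. limma 3.58.1 (lmFit, eBayes; R 4.3.3) was fitted with 1 mean per group over all 45037 probe sets, adjusted by Benjamini-Hochberg, and checked on simulated data. Pairs of the same replicate number had correlations of -0.156 to 0.057 between deviations. The reported fits therefore do not pair samples by number, and whether same-numbered arrays were handled together is not known. The members, the gene lists and the split of the arrays were chosen with earlier results of these data known; every member is named, and of other lists the genes called in either depletion. Alternatives were an offset of 16, dim probe sets left out, quantile normalization, other models, exchanged Wapal labels and each array left out. Promoters came from RefSeq (GRCm38.p6). Those of Krt19, Pkp2, Dsg2 and Dsc2 were not used here.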

Additional observations from a re-analysis of the deposited data

Results flagged for a closer look

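The effects of Wapal and of Smc3 depletion were tested against each other, and 4 of the 10 genes differed (limma, 10 arrays, Benjamini-Hochberg). Krt8 was 0.26 higher in log2 with Wapal than with Smc3 depletion, Dsg2 was 0.23 higher, Krt19 was at -0.49 and Pof1b at -0.83. The other bright Dsg2 probe sets, at 0.12 and 0.15, were not called. Each value averages hairpins that differed from one another by as much as 2.45-fold for Wapal and 8.01-fold for Smc3, both in Krt19. With a term for the split of the arrays Pof1b alone kept its call, and with exchanged Wapal labels none did. Calls over all probe sets dropped from 7820 to 5472 with the term and to 4553 with exchanged labels. The values were the same in both fits, and only the spread differed.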

How the results depend on the processing

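The reported fits called 4 of the 10 genes in each comparison. Among alternative values of single genes, 370 kept their direction and side of the threshold, 87 lost the call, 4 gained a call and 9 changed sign. With Wapal depletion the count was 0 by the methods' t-test after adjustment and 1 before it, 1 with a term for the split of the arrays, 0 with exchanged Wapal labels (limma; 1 at an unadjusted p under 0.05) and 0 to 2 without 1 array. With Smc3 depletion it was 0, 1 and 2 in the first 3 of these and 3 to 4 without 1 array. Between the depletions it was 0 and 0 by the methods' t-test, 1 with the split, 0 with exchanged labels (3 unadjusted) and 1 to 4 without 1 array. For Wapal depletion, leaving out any 1 array also lowered the calls over all probe sets. For Smc3 depletion any 1 Smc3 array or Empty Vector replicate 1 left out lowered them, and Empty Vector replicate 2 left out raised them. Between the depletions they were lower without any 1 depleted array and higher only without an Empty Vector array. The replicate block gave 3, 4 and 3 calls among the 10 genes and 1920, 3069 and 7231 over all probe sets. Over all probe sets, the methods' t-test after adjustment called 3 with Wapal depletion, 0 with Smc3 depletion and 1116 between them. Before adjustment it called 7056, 5485 and 8845. With the term for the split of the arrays the calls were 3343, 2708 and 5472, beside 2661, 3434 and 7820 in the reported fits. Exchanged labels gave 51 calls over all probe sets with Wapal depletion and 4553 between the depletions, beside 2661 and 7820 in the reported fits. Without dim probe sets Krt19 was not tested with Wapal depletion nor Pof1b with Smc3 depletion, and 3 of the genes left were called in each. Genes over 2-fold apart between the Wapal hairpins numbered 4, 2 with the offset, 0 with exchanged labels and 4 to 5 without 1 array. Genes over 1.5-fold apart between the Empty Vector arrays numbered 2, and 1 with the offset or without dim probe sets. No called value changed sign. Without 1 array, Dsp ran from -0.628 to 0.319, Dsc2 from -0.211 to 0.149 and Pof1b from -0.311 to 0.302 with Wapal depletion, Dsp from -0.698 to 0.249 with Smc3 depletion, and Jup from -0.225 to 0.006 between the depletions. With the offset Pof1b became 0.013 with Wapal depletion. The single arrays that turned these signs were Empty Vector replicate 2 (Dsp, Dsc2 and Pof1b with Wapal depletion, Dsp with Smc3 depletion), Wapal shRNA1 replicate 2 (Dsc2, Pof1b), Wapal shRNA2 replicate 2 (Pof1b) and Wapal shRNA1 replicate 1 (Jup between the depletions). The causes were not tested.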
